A study of Mus musculus with 32 samples.

Results

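Superoxide dismutases, catalase and glutathione peroxidases, the enzymes that dispose of superoxide and peroxides, were followed as 7 genes (Sod1, Sod2, Sod3, Cat, Gpx1, Gpx3 and Gpx4) of the 22329 in the table. They were chosen by name as the family's main members, and the set was selected on a measured value of 1 of them, the line difference of Sod3 and its dependence on setting. The differences of Sod3 between groups are therefore given as a description, without a test. The libraries came from 2 forms of the mouse line MC38, labelled colon adenocarcinoma: the parental cells and cells resistant to anti-PD-1, which is an antibody against a checkpoint receptor of T cells. The 4 groups were 13 parental tumors and 12 resistant tumors, all grown under the skin of C57BL6/J mice that received no treatment, and 2 parental and 5 resistant libraries of untreated cells in culture. The tumors were bulk tissue, so host cells contribute to them.

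Superoxide dismutases turn superoxide into hydrogen peroxide and oxygen, with SOD1 in the cytosol, SOD2 in the mitochondrial matrix and SOD3 bound to the extracellular matrix. Catalase removes hydrogen peroxide in peroxisomes. Glutathione peroxidases reduce peroxides at the expense of glutathione, and GPX1, GPX3 and GPX4 carry selenocysteine in the active site. GPX1 is the cytosolic and mitochondrial form, GPX3 is secreted, and GPX4 reduces lipid hydroperoxides in membranes and thereby guards against ferroptosis.

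Values are TPM, the share of a library's transcripts that 1 gene takes after scaling by length, so that levels can be compared between genes. Read totals are not in the table, so depth is unknown and precision rests on the spread between libraries. The GC index of a library (how far GC-rich genes stand above GC-poor ones, as a difference of median log2 levels) ranged from -0.28 to 0.85 in parental tumors, from -0.54 to 0.27 in resistant tumors and from -0.45 to -0.22 in culture, and 4 parental tumors (2, 3, 7 and 8) lay above 0.5. Resistant culture 1 stood apart from the other 4 resistant cultures. It held 18 genes that exceeded 10 TPM in both parental cultures and stayed under 0.5 TPM in the other 4, at a median of 13.6% of the parental level, whereas the same count for each other resistant culture was 1 or 2. Its median correlation with the other resistant cultures was 0.984 across genes, against 0.991 to 0.992 for the others. Of 11 colon epithelium markers, 10 had a median under 1 TPM in both tumor groups and in parental culture, and all 11 did in resistant culture, so the markers of the labelled tissue of origin were nearly absent. Tumor and culture libraries carry different title prefixes, so setting and any batch that goes with the prefix cannot be told apart. Among tumors, the title numbers of the 2 lines fall in separate ranges, so line and any batch that goes with the numbers cannot be told apart either.

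RefSeq sequences (GRCm38.p6) of the 250 bases before the start site were found for 6 of the 7 genes. They are shown for Sod1, Sod2 and Cat, which were low together in the same 4 tumors, and for Gpx3, which had the widest gap between tumors and culture. The windows are chr16:90220512-90220761 (plus strand) for Sod1, chr17:13007589-13007838 (plus strand) for Sod2, chr2:103485154-103485403 (minus strand) for Cat and chr11:54902604-54902853 (plus strand) for Gpx3. Capitals mark matches, on either strand, to the GC box GGGCGG, the CCAAT box CCAAT, the TATA box TATAAA or the antioxidant response element core TGACNNNGC, and matches of 1 motif may overlap.
Sod1: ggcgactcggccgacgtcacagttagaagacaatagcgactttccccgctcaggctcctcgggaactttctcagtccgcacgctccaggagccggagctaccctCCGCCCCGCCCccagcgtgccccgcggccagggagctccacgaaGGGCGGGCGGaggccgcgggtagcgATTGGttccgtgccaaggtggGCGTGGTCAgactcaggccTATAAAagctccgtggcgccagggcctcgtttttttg
Sod2: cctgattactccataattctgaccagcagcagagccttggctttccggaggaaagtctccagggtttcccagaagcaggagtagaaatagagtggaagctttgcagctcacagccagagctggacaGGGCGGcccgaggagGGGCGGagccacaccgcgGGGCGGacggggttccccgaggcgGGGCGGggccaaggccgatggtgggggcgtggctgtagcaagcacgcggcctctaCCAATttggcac
Cat: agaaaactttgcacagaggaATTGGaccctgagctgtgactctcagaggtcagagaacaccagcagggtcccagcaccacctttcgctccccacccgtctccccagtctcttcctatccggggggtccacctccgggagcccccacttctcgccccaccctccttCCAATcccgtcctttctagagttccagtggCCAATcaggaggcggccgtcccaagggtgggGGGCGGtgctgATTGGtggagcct
Gpx3: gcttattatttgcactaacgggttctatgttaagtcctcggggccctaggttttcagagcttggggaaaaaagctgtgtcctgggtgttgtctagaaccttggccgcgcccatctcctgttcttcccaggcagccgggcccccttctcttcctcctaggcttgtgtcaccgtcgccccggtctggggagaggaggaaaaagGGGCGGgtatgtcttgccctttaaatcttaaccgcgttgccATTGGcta
Sod1 and Sod2 each held 4 GC boxes and 1 CCAAT box, and Cat held 1 GC box and 4 CCAAT boxes. Gpx3 held 1 of each. Only Sod1, of the 4, held a TATA box and an antioxidant response element core, with 1 match to each. Over all 32851 windows of this length, 32.7% held a GC box, 33.8% a CCAAT box, 12.4% a TATA box and 10.2% the antioxidant response element core. The GC content of the windows was 66.4% for Sod1, 63.6% for Sod2, 62.0% for Cat and 55.2% for Gpx3, against a median of 52.4% over all windows. The Gpx1 window held no match to these motifs and had a GC content of 42%.

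**Figure D1:**
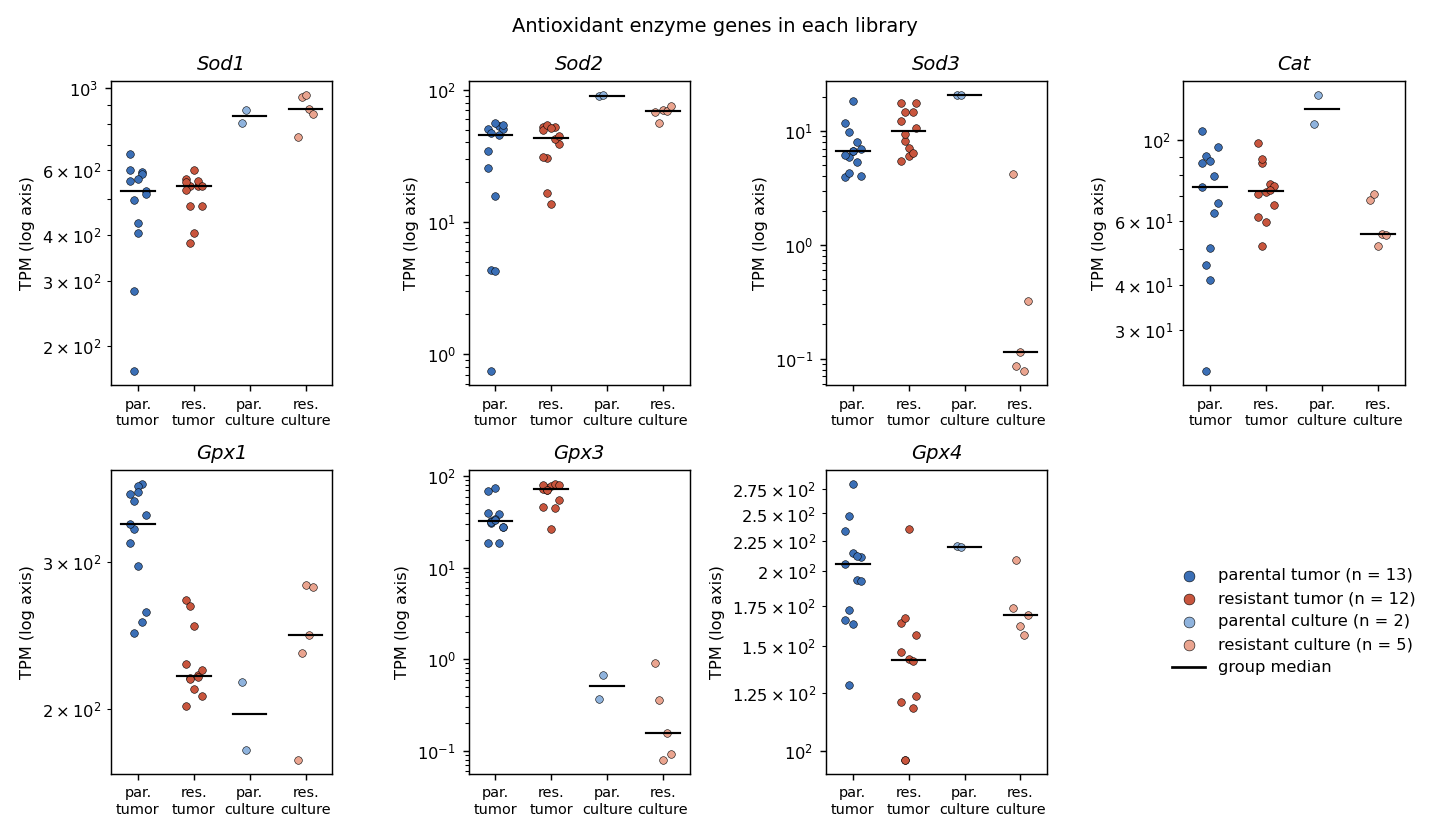
TPM of the 7 enzyme genes (vertical log axes that do not start at 0) in each library, 1 point per library, by group, with a line at the group median. Gpx3 lies between 18.8 and 83.2 TPM in tumors and under 1 TPM in every culture, and Sod3 is at 20.9 TPM in both parental cultures and at or under 4.21 TPM in the resistant ones.

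Sod1, the cytosolic copper and zinc enzyme, was the most abundant of the 7 in every group by its mean level. It ranged from 171 to 660 TPM in parental tumors (median 525.7) and from 381 to 600 in resistant tumors (median 541). Parental cultures held 803 and 871 TPM, and resistant cultures held 736, 946, 956, 873 and 849. Every culture thus lay above every tumor, while the lines overlapped in both settings. Means were 491 ± 138 TPM (SD, n = 13) and 515 ± 66.6 (n = 12) in parental and resistant tumors, and 837 ± 47.6 (n = 2) and 872 ± 88.9 (n = 5) in the cultures. On the log2(TPM + 1) scale, resistant tumors were 0.76 below resistant culture (-0.76, SE 0.11, adjusted p = 4.72e-06, limma), which passed the threshold of 0.05. The parental difference of -0.84 (SE 0.35) did not (adjusted p = 0.0956, limma). Without parental tumor 2, the lowest library, it was -0.72 with an adjusted p of 0.0281 (limma), and without the 4 parental tumors of high GC index it was -0.57 with an adjusted p of 0.00314 (limma). Neither line difference passed: 0.13 (95% confidence interval -0.19 to 0.45) in tumors and 0.05 (-0.25 to 0.36) in culture, with adjusted p = 0.551 and 0.831 (limma).

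Sod2, the manganese enzyme of mitochondria, varied widely among parental tumors. Parental tumors ran from 0.744 to 56.3 TPM (median 45.4) and resistant tumors from 13.8 to 53.7 (median 43.5). Parental cultures held 89.0 and 91.5 TPM, and resistant cultures held 67.8, 56.03, 70.7, 68.6 and 74.99. The parental cultures lay above all other libraries, and resistant cultures lay above all resistant tumors. Sod2 was lower in resistant tumors than in resistant culture by a log2 difference of -0.86 (SE 0.26, adjusted p = 0.0102, limma). With 1 fit over all libraries, that adjusted p was 0.23. The parental tumor and culture difference, -1.94 (SE 1.04), had an adjusted p of 0.194 (limma). The line difference was 0.67 in tumors (-0.29 to 1.63, adjusted p = 0.291, limma) and -0.42 in culture (-0.74 to -0.09, adjusted p = 0.0857, limma), so neither passed although the culture ranges did not overlap.

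The 4 parental tumors with a GC index above 0.5 held 0.744 to 15.6 TPM of Sod2, against 25.6 to 56.3 in the other 9. The same tumors held 23.1 to 50.6 TPM of Cat against 62.9 to 106, and 171 to 430 TPM of Sod1 against 496 to 660. For these 3 genes the 4 tumors did not overlap the other 9, whereas Gpx1, Gpx3, Gpx4 and Sod3 overlapped between them. In resistant tumors the lowest Sod2 values, 13.8 and 16.4 TPM, were in tumors 3 and 12, whose GC indices of 0.27 and 0.20 were the highest of that line. Transcript GC content was 53.2% for Sod1, 53% for Sod2 and 51.9% for Cat. It was 57.2% for Gpx1, 54.6% for Gpx3, 58.8% for Gpx4 and 52.7% for Sod3. Whether transcript GC content has a part in the low values was not tested. Without the 4 tumors, the tumor line difference changed sign for Sod1 (-0.14), Sod2 (-0.29) and Cat (-0.19), and none of the 3 passed.

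**Figure D2:**
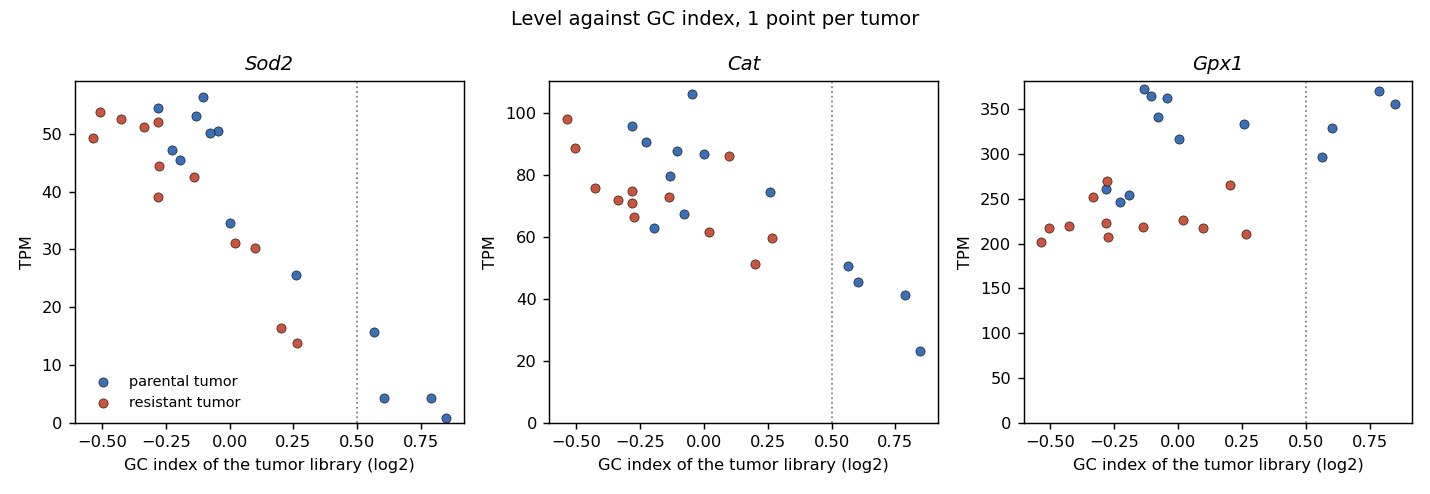
TPM of Sod2, Cat and Gpx1 (vertical axes) against the GC index of the library (horizontal axis, log2), 1 point per tumor, with a dotted line at 0.5. The 4 parental tumors right of the line hold at most 15.6 TPM of Sod2 and 50.6 TPM of Cat, while their Gpx1 values, 297 to 370 TPM, lie within the range of the other parental tumors.

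Sod3, the secreted dismutase, had the widest line difference of the 7 in culture and the opposite sign in tumors, which is the pattern it was chosen for. Both parental cultures held 20.9 TPM. The resistant cultures held 4.21, 0.0862, 0.115, 0.0776 and 0.322 TPM, so 4 of the 5 were under 1 TPM and all lay below parental culture. In tumors Sod3 ran from 3.92 to 18.6 TPM in the parental line (median 6.67) and from 5.50 to 17.8 in the resistant line (median 10.1), and the lines overlapped. Means were 7.55 ± 4.01 TPM (SD, n = 13) and 10.9 ± 4.51 (n = 12). The order of the group means was parental culture, resistant tumors, parental tumors, resistant culture. The neighbours in the middle overlapped, and parental culture overlapped no other group. Resistant culture 1 overlapped the parental tumors and no resistant tumor. The log2 difference between lines was -3.82 (SE 0.58, interval -5.13 to -2.51) in culture and 0.50 (SE 0.21, 0.06 to 0.94) in tumors. Tumors minus culture gave -1.47 (SE 0.39) in the parental line and 2.85 (SE 0.33) in the resistant line, and subtracting the culture from the tumor line difference gave 4.31 (SE 0.56).

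The value of 4.21 TPM belongs to resistant culture 1, the library that stood apart. Sod3 was among its 18 genes, at 20.2% of the parental level. Without that library the resistant tumor and culture difference was 3.28, and over all libraries left out in turn the culture line difference ranged from -4.25 to -3.69. At a pseudocount of 0.1 the culture difference was -5.64 in place of -3.82, with 4 of the resistant cultures under 1 TPM. Markers used for host cells differed between the tumor groups. Summed fibroblast and pericyte markers (12 genes) were 288 to 1640 TPM in parental tumors (median 698) and 934 to 2330 in resistant tumors (median 1990). Of the 12 markers, 9 were called higher in resistant tumors, against 16.3% of all genes tested. Some of these markers are also made in culture without host cells, where the sum was 80.9 to 125 TPM in parental and 283 to 875 TPM in resistant cells, mostly as Dcn in the latter (median 688 TPM). Of the 7 fibroblast and pericyte markers tested in culture, 2 were called higher and 1 lower in the resistant line, against 14.2% of all genes called. The higher ones were Pdgfrb and Dcn. Pdgfrb had a line difference of 1.79 in tumors and 1.81 in culture (adjusted p = 1.87e-08 and 0.00126, limma). Dcn had 1.39 and 6.87 (adjusted p = 0.014 and 1.87e-04, limma). The lower one was Col3a1, with 1.046 in tumors and -2.345 in culture (adjusted p = 0.00121 and 0.0133, limma). A marker sum therefore does not measure host cells alone, and the part of host cells in the higher sum was not tested. Smooth muscle markers summed to 21.7 to 63.3 and 35.0 to 83.0 TPM in parental and resistant tumors. With the fibroblast and pericyte markers as a covariate, the tumor line difference of Sod3 was -0.05 (SE 0.29). The mean log2 level of these markers was 3.68 to 5.30 in parental and 4.77 to 5.86 in resistant tumors. It goes largely with the line, so fits with this covariate, for Sod3 or another enzyme, cannot tell the markers from the line. In bulk tissue, fewer cells of a type and less RNA per cell cannot be told apart.

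Cat, the peroxisomal catalase, was high in parental culture. It held 111 and 133 TPM there, above every other library, and 68.4, 70.9, 51.1, 55.0 and 54.7 TPM in resistant culture. Tumors ranged from 23.1 to 106 TPM in the parental line (median 74.5) and from 51.2 to 97.9 in the resistant line (median 72.4), so the lines overlapped there. The mean was 122 ± 15.9 TPM (SD, n = 2) in parental and 60.02 ± 8.97 (n = 5) in resistant culture, 2.03-fold apart. The culture line difference was -1.02 (SE 0.17, adjusted p = 0.00532, limma), with all 5 resistant cultures below both parental ones. Without parental culture 2, which leaves 1 parental culture that is assumed to vary like the other groups, it was -0.88 with an adjusted p of 0.072, and with 1 fit over all libraries the adjusted p was 0.0502 (limma). The labels do not say that the cultures were grown separately, so p-values in culture reflect only how much these libraries vary, and that variation could be technical. In tumors the line difference was 0.14 (-0.23 to 0.51, adjusted p = 0.583, limma). The difference between the 2 line differences, 1.16 (SE 0.38), did not pass (adjusted p = 0.0894, limma), but it did without the 4 parental tumors of high GC index (0.82, adjusted p = 0.026, limma) and without parental tumor 2 alone (1.03, adjusted p = 0.0392, limma). Tumor minus culture was -0.88 in the parental line (adjusted p = 0.121) and 0.27 in the resistant line (adjusted p = 0.0908, limma). Without parental tumors of high GC index the former was -0.55 (adjusted p = 0.0307), with 1 fit over all libraries its adjusted p was 0.032, and without resistant tumor 12 the latter was 0.32 (adjusted p = 0.0333, limma).

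Gpx1, the most abundant glutathione peroxidase of the 3 in tumors, was lower in resistant than in parental tumors. Parental tumors held 247 to 373 TPM (median 333) and resistant tumors 202 to 270 (median 219). The ranges overlapped, but all 12 resistant tumors lay below the parental mean. Means were 324 ± 45.3 TPM (SD, n = 13) and 228 ± 22.5 (n = 12), a log2 difference of -0.50 (SE 0.08, adjusted p = 3.05e-05, limma). In culture the sign was the other: 215 and 179 TPM in the parental line, and 174, 234, 281, 245 and 280 in the resistant line, a difference of 0.29 (-0.15 to 0.72, adjusted p = 0.366, limma). The line difference in tumors was lower than that in culture by -0.78 (SE 0.19, adjusted p = 0.0128, limma). Without parental culture 2 the difference was -0.65 with an adjusted p of 0.306 (limma), in a fit where 1 parental culture remains and is assumed to vary like the other groups. Parental tumors exceeded both parental cultures, with a log2 difference of 0.71 (SE 0.18, adjusted p = 0.00748, limma), which was 0.57 with an adjusted p of 0.175 without parental culture 2. Resistant tumors and resistant culture differed by -0.08 (-0.30 to 0.14, adjusted p = 0.557, limma).

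Macrophage markers, like Gpx1, were lower in resistant than in parental tumors. Their sum over 8 genes was 287 to 1190 TPM in parental tumors (median 894) and 288 to 554 in resistant tumors (median 382). Of the 8, 7 were called lower in resistant tumors, against 13.9% of all genes tested. Cultures held at most 32 TPM. With Ptprc, a pan-leukocyte gene, as a covariate, the Gpx1 difference was -0.51 (adjusted p = 3.50e-05, limma), and with the fibroblast and pericyte markers it was -0.34 (adjusted p = 0.043, limma). Ptprc itself was not called between the tumor groups (-0.35, adjusted p = 0.125, limma), unlike 7 of the 8 macrophage markers. Whether it stands for those markers was not tested. Within lines, their mean log2 level and Gpx1 gave r = 0.26 in parental and -0.07 in resistant tumors (permutation p = 0.41 and 0.817). Among the 9 parental tumors of lower GC index r was 0.62 and rho 0.77 (exact permutation p = 0.0758 and 0.0214, unadjusted). The part of macrophages in the Gpx1 difference was not tested.

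Gpx3, the secreted peroxidase of plasma, was nearly confined to tumors among these 4 groups. Parental cultures held 0.364 and 0.665 TPM, and resistant cultures held 0.917, 0.362, 0.0794, 0.156 and 0.0923. Parental tumors held 18.8 to 75.01 TPM (median 32.4) and resistant tumors 26.6 to 83.2 (median 72.4), so every tumor lay far above every culture. The ratio of means was 71.4 in the parental line and 204 in the resistant line. On the log2(TPM + 1) scale, which understates changes of low genes, tumors exceeded culture by 4.54 (SE 0.38, adjusted p = 6.34e-08, limma) in the parental line and by 5.62 (SE 0.22, adjusted p = 1.43e-14, limma) in the resistant line. Between the lines, tumors held 36.7 ± 16.8 TPM (SD, n = 13) in the parental and 65.4 ± 17.9 (n = 12) in the resistant line. This was a log2 difference of 0.86 (SE 0.20, adjusted p = 0.00168, limma), with 11 of 12 resistant tumors above the parental mean. With the fibroblast and pericyte markers as a covariate it was 0.56 with an adjusted p of 0.2 (limma). Gpx3 was too low in culture to be tested there, and the difference of line differences was 1.09 (SE 0.44, adjusted p = 0.199, limma). That value includes the culture levels under 1 TPM, and over the alternative settings it ranged from 0.94 to 1.72. Adipocyte markers summed to 18.7 to 188 TPM in parental tumors (median 34.3) and to 16.3 to 69.4 in resistant ones (median 43.8). Fabp4 alone had medians of 29.9 and 35.3 TPM, in the same order, and Car3 had 3.76 and 6.68. The other 5 of the 7 markers had medians under 1 TPM in both tumor groups, among them the adipocyte hormone gene Adipoq (0.213 and 0.303). Endothelial markers summed to 68.7 to 140 and 53 to 119 TPM. Between the lines 0 of 8 were called by limma, against 30.2% of all genes tested, and 1 of 8 had an unadjusted p under 0.05.

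Gpx4, the lipid hydroperoxidase, was lower in resistant tumors. Parental tumors held 129 to 281 TPM (median 206) and resistant tumors 96.7 to 235 (median 142), and the ranges overlapped. The parental mean lay above 11 of 12 resistant tumors. Means were 202 ± 39.5 TPM (SD, n = 13) and 142.5 ± 37.5 (n = 12), a log2 difference of -0.51 (SE 0.13, adjusted p = 0.00288, limma). With the fibroblast and pericyte markers as a covariate it was -0.43 with an adjusted p of 0.127 (limma). In culture the parental line held 221 and 219 TPM and the resistant line 174, 209, 162, 157 and 169. These ranges did not overlap, but the difference of -0.34 (-0.65 to -0.03) had an adjusted p of 0.133 (limma). The line differences in tumors and culture differed by -0.17 (-0.72 to 0.38, adjusted p = 0.865, limma). Tumor minus culture was -0.15 (adjusted p = 0.624) in the parental and -0.32 (adjusted p = 0.0968, limma) in the resistant line. The latter passed without resistant tumor 3 (-0.39, adjusted p = 0.0179) and with median-of-ratios scaling (-0.40, adjusted p = 0.0384, limma). Gpx4 has pseudogene copies in the mouse annotation, and reads shared with them could have been split.

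**Figure D3:**
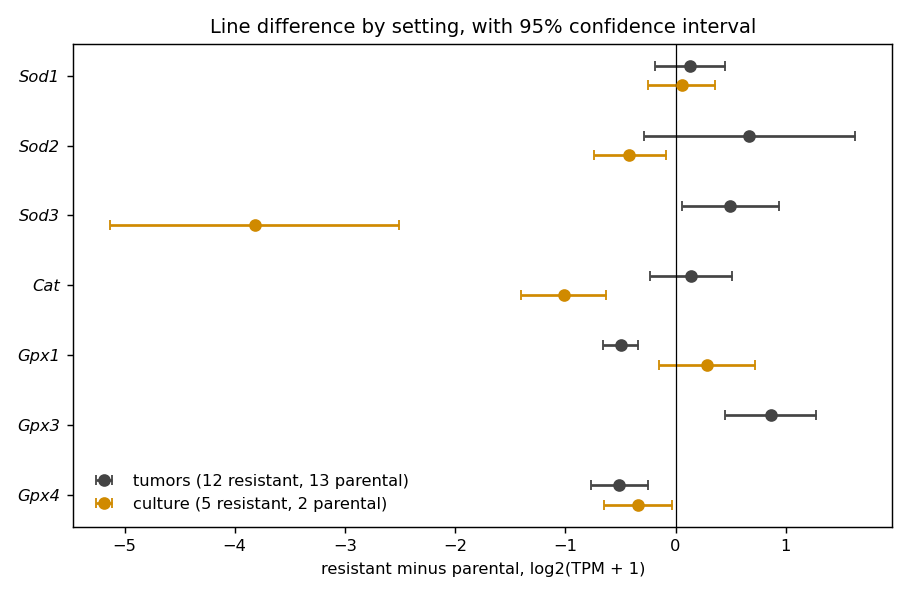
Log2 difference of resistant minus parental, log2(TPM + 1), for the 7 genes, in tumors (dark points) and in culture (orange points), with 95% confidence intervals from limma. Gpx1 and Gpx4 lie left of 0 in tumors and Gpx3 right of it, and Cat (-1.02) and Sod3 (-3.82) lie left of it in culture. The intervals are not adjusted for the number of genes. Those of Sod2 and Gpx4 in culture and of Sod3 in tumors also leave out 0. Gpx3 was not tested in culture.

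Of the 6 genes other than Sod3, 3 were called between the tumor groups, 1 higher and 2 lower in the resistant line. Of all 12095 genes tested, 30.2% were called, 16.3% higher and 13.9% lower. In culture 1 of the 5 tested was called, against 14.2% of 11201 genes. Parental tumors against culture gave 2 of 6 against 22.1%, and resistant tumors against culture gave 3 of 6 against 50.3%. The difference of line differences gave 1 of 6 against 4.01%. These counts are small, and the comparisons share libraries. The median log2 difference of all genes tested was 0.04 in the tumor and -0.01 in the culture line comparison, 0.21 and 0.18 in the parental and resistant tumor against culture comparisons, and 0.01 for the difference of line differences.

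Sod3 and Gpx3, the 2 secreted enzymes, were compared across the tumors within each line, a relation the choice of Sod3 did not use; r passed after adjustment in parental tumors, while rho there and both measures in resistant tumors did not. In parental tumors Pearson's r of log2(TPM + 1) was 0.84 and Spearman's rho 0.74 (permutation p = 5.50e-04 and 0.00581). Adjusted over 42 relations (21 pairs in 2 lines) these were 0.00577 and 0.122. Without the 2 tumors farthest from the Sod3 median r was 0.55, and among the 9 tumors of lower GC index r was 0.78 and rho 0.70 (exact permutation p = 0.013 and 0.0433). In resistant tumors r was 0.69 and rho 0.72 (permutation p = 0.00727 and 0.011, adjusted 0.057 and 0.155), and 0.65 without the 2 farthest. Culture did not share the pattern: both parental cultures combined 20.9 TPM of Sod3 with under 1 TPM of Gpx3. Sod1, Sod2 and Cat separate the parental tumors into the 4 of high GC index and the other 9, so no pooled correlation is given for their pairs. Among the 9, r was -0.54 for Sod1 with Sod2, -0.19 for Sod1 with Cat and 0.26 for Sod2 with Cat (exact permutation p = 0.144, 0.629 and 0.507), with rho of -0.47, -0.45 and 0.48 (exact permutation p = 0.213, 0.23 and 0.194). In resistant tumors Sod1 and Sod2 gave r = 0.79, which fell to 0.02 without the 2 farthest tumors and so rests on them. Over 28 relations between the 7 genes and the mean log2 level of the fibroblast and pericyte or the macrophage markers, 0 had an adjusted permutation p under 0.05 (the lowest was 0.065 for Pearson's r and 0.0796 for Spearman's rho). Unadjusted, 7 were under it by Pearson's r and 7 by Spearman's rho, and these were in part different relations.

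**Figure D4:**
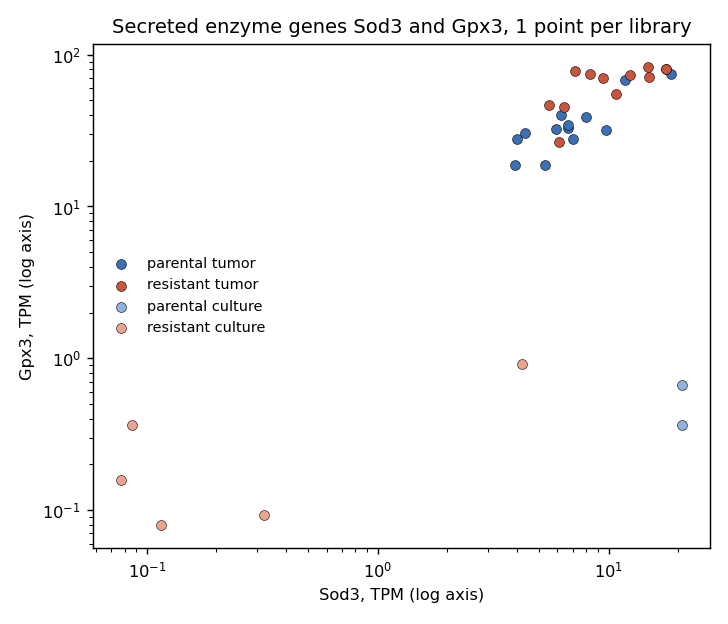
TPM of Gpx3 (vertical log axis) against Sod3 (horizontal log axis), 1 point per library, colored by group. Tumors form a rising cloud at 18.8 TPM of Gpx3 and above, the parental cultures sit at 20.9 TPM of Sod3 with under 1 TPM of Gpx3, and resistant culture 1 (4.21 TPM of Sod3) sits apart from the other resistant cultures.

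The genes whose levels ran most like each enzyme's were ranked among 9753 genes by the lower of 2 Pearson correlations, 1 over the 13 parental and 1 over the 12 resistant tumors. For Sod3 they were Lox (0.86), F13a1 (0.85) and Col1a2 (0.82), and for Gpx3 Serping1 (0.86), Loxl1 (0.83) and Serpina3n (0.82). LOX and LOXL1 cross-link collagen and elastin, and COL1A2 is a chain of type I collagen. All 6 of these genes averaged higher in resistant than in parental tumors and at most 1.2 TPM in either culture. Sod2 ran with Rrn3 (0.98), Vapa (0.98) and Nfia (0.97), Sod1 with Ndufb11, Chmp5 and Prkaca (0.93 each), and Cat with Zfp334 (0.91), Arhgef12 (0.89) and Gna13 (0.88). These 3 sets were ranked over all parental tumors, including the 4 of high GC index that stand apart for Sod1, Sod2 and Cat. Among the other 9 parental tumors the correlations were 0.44, 0.08 and -0.21 for the partners of Sod1, 0.82, 0.96 and 0.56 for those of Sod2 and 0.73, 0.60 and 0.67 for those of Cat, so the likeness of Sod1 to its partners in the parental line rests on the 4 tumors. For Sod3 and Gpx3 the partners held 0.79 to 0.95 among the 9. These 9 were part of the ranking that chose the partners, so high values among them are no separate check. Gpx1 had the weakest partners, Samm50 (0.69), Ada (0.68) and Ctdnep1 (0.66), and Gpx4 ran with the ribosomal protein gene Rps21 (0.77), the thioredoxin gene Txn1 (0.75) and Wdr5 (0.75).

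Among relatives of the enzymes, Gpx8, a peroxidase of the endoplasmic reticulum, had a line difference that depended on setting. It averaged 49.0 ± 10.6 TPM (SD, n = 13) in parental and 54.6 ± 6.09 (n = 12) in resistant tumors, and 132 ± 5.39 (n = 2) against 62.9 ± 8.96 (n = 5) in culture. The line difference was 0.17 in tumors (adjusted p = 0.191, limma) and -1.07 in culture (SE 0.16, adjusted p = 0.00321, limma), and the difference between them was 1.24 (SE 0.22, adjusted p = 3.05e-04, limma). Ccs, the copper chaperone that loads SOD1, averaged 50.03, 40.3, 22.6 and 35.0 TPM in parental tumors, resistant tumors, parental culture and resistant culture. Its line differences were -0.27 in tumors (adjusted p = 0.11) and 0.60 in culture (adjusted p = 0.0583, limma), and parental tumors exceeded parental culture by 1.07 (adjusted p = 0.00985, limma). Gpx7 averaged 3.13 and 4.94 TPM in parental and resistant tumors, was listed at 0 in both parental cultures and averaged 0.671 TPM in resistant culture. Its line difference in tumors, 0.48, did not pass (adjusted p = 0.292, limma). Gpx2, Gpx5 and Gpx6 were under 1 TPM in every library.

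Genes that support the enzymes are given by their counts between the tumor groups, where 30.2% of all genes tested were called, 16.3% higher and 13.9% lower, with a median of 0.04. Of 17 peroxiredoxin and thioredoxin genes, which reduce peroxides with thioredoxin, 1 was called higher and 5 lower in resistant tumors (median log2 difference -0.12). The lower ones included Prdx6 (-0.47, adjusted p = 4.11e-04), Txn2 (-0.49, adjusted p = 0.00117) and Prdx4 (-0.46, adjusted p = 0.00731, limma). Of 13 glutathione supply genes 1 was higher and 3 lower (median -0.19), the lower ones being the glutathione-degrading Chac1 (-0.67, adjusted p = 0.0153), the cystine transporter chain Slc3a2 (-0.35, adjusted p = 0.017) and glutathione synthetase Gss (-0.54, adjusted p = 0.0187, limma). Of 8 selenoprotein synthesis genes 1 was lower, Trnau1ap (-0.28, adjusted p = 0.0488, limma), while Pstk (-0.32, adjusted p = 0.0931) and Sephs2 (0.60, adjusted p = 0.188) did not pass (median -0.04). Of 7 tested copper handling genes 1 was higher, the copper pump Atp7a (0.61, adjusted p = 0.00602), and 2 lower, the copper chaperones Cox17 (-0.92, adjusted p = 1.18e-06) and Atox1 (-0.47, adjusted p = 0.0177, limma), with a median of -0.10.

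Superoxide is also made by the NADPH oxidase of phagocytes. The counts of the next 4 lists stand beside the same share of 30.2% of all genes. Of 6 tested genes of that complex and its homologs (13 listed, Cyba not analysed here), 4 were lower in resistant tumors (median -0.68), among them Ncf1 (-0.82, adjusted p = 0.00123), Rac2 (-0.78, adjusted p = 0.00299) and Cybb (-0.74, adjusted p = 0.0118). They are expressed by macrophages and neutrophils, and the macrophage markers were lower in the same tumors. A link between these differences was not tested. Ncf4 (-0.16, adjusted p = 0.701, limma) did not pass, and Rac2 was also lower in resistant culture (-1.05, adjusted p = 0.0337, limma). Of 11 tested lipid peroxidation and iron genes 4 were lower (median -0.16), among them the transferrin receptor Tfrc (-1.35, adjusted p = 2.38e-06), the quinone reductase Nqo1 (-1, adjusted p = 0.00446) and ferritin light chain Ftl1 (-0.39, adjusted p = 0.00486, limma). Of 17 tested peroxisome genes 2 were higher (median 0.02), the import factor Pex13 (0.39, adjusted p = 0.0233) and the fatty acid transporter Abcd3 (0.24, adjusted p = 0.0321, limma), while Pex14 (-0.24, adjusted p = 0.124) did not pass. Of 12 NF-kB targets, a class to which Sod2 belongs, 2 were higher, Icam1 (1.45, adjusted p = 6.61e-06) and Tnfaip3 (0.83, adjusted p = 8.57e-04), and 3 lower, among them Ccl2 (-1.03, adjusted p = 1.90e-06, limma), with a median of -0.13.

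In culture, where 14.2% of all genes tested were called, 1 of 17 peroxiredoxin and thioredoxin genes was higher and 1 lower, and 1 of 12 glutathione supply genes was lower. Of 8 selenoprotein synthesis genes 1 was higher and 1 lower, of 7 copper handling genes 1 was lower, and the 1 NADPH oxidase gene tested, Rac2, was lower (-1.05, adjusted p = 0.0337, limma). Of 10 lipid peroxidation and iron genes 2 were lower, Nqo1 (-3.22, adjusted p = 1.99e-04) and Ftl1 (-1.30, adjusted p = 0.00126, limma). Of 18 peroxisome genes 0 were called by limma and 1 had an unadjusted p under 0.05, while Cat itself was lower. Of 11 NF-kB targets 9 were higher in resistant culture (median 1.11), including Icam1 (3.10, adjusted p = 0.0173) and Ccl2 (1.11, adjusted p = 0.0438, limma), while Sod2 was not called there.

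**Figure D5:**
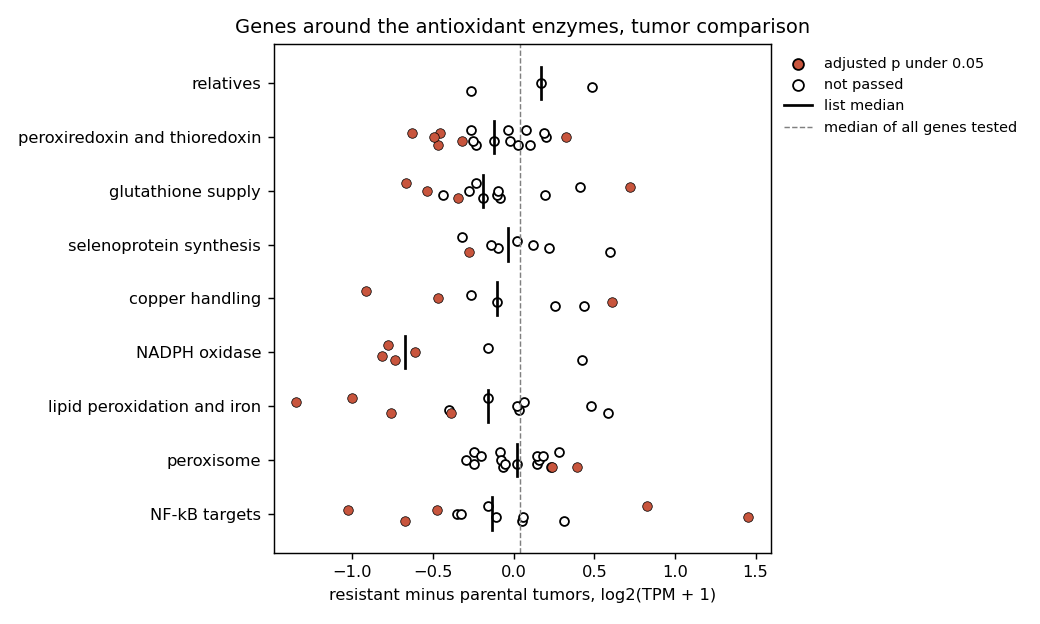
Log2 difference of resistant minus parental tumors, log2(TPM + 1), for the tested genes of 9 lists around the enzymes, 1 point per gene, filled where adjusted p is under 0.05, with a black line at the list median and a dashed line at the median of all genes tested (0.04). NADPH oxidase genes have the lowest median, -0.68.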

How the data were processed

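Per the labels, poly(A) RNA from Qiagen extraction with DNase went into KAPA RNA HyperPrep libraries. The authors deposited 1 table of TPM by gene symbol for 32 libraries, each summing to 1000000. STAR and GRCh38, a human build, are named per the submitters' processing notes without version or role, while 98.4% of the symbols are in GENCODE mouse release M21; the quantifier is not given in the sources used here. Values reach down to 8.57e-317, so they are estimates from which counts cannot be recovered.

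Groups came from the labels, which pair no samples; replicate numbers follow accession order. Each of 5 comparisons was fitted over all genes on log2(TPM + 1) in limma 3.58.1 (R 4.3.3, moderated with a trend); tests were two-sided, adjusted by Benjamini-Hochberg and called under 0.05. Genes entered a test when the number of libraries at 1 TPM or more was no smaller than the smaller group. The GC index used 2637 genes of GC fraction over 0.55 and 761 under 0.42, whose tumor mean was 5 TPM or more. Named genes were the 7 enzymes, their relatives, up to 3 genes of lowest adjusted p in tumors per list and the 3 most alike genes. Members and lists were chosen with earlier results of these data known, and 1 gene of the peroxisome list is not reported here. Correlations used 100000 permutations, or all orders under 10 tumors. Other steps ran in Python 3.11.15 (pandas 2.3.3, numpy 2.4.6, scipy 1.17.1; plots in matplotlib 3.10.9). The limma fit was tested on simulated data. The alternatives comprised other scalings (quantile, median-of-ratios), filters (none, 5 TPM), a pseudocount of 0.1, 1 fit over all libraries, a rank-sum test, covariates, leaving out tumors of high GC index and leaving out each library.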

Additional observations from a re-analysis of the deposited data

Results flagged for a closer look

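Sod3 in resistant culture 1 stood far from the other 4 resistant cultures: its gap to the nearest of them took a share of 0.87 of the group's range. This is a description, since the enzymes were selected on values that include these. The library held 4.21 TPM, against 0.0776 to 0.322 TPM in the others, and Sod3 is 1 of 18 genes there that exceed 10 TPM in both parental cultures and stay under 0.5 TPM in the other resistant cultures.

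Gpx1 had a line difference that differed between settings: -0.50 in tumors and 0.29 in culture, with a difference between them of -0.78 (SE 0.19, adjusted p = 0.0128, limma). All 12 resistant tumors lay below the parental tumor mean, while 4 of 5 resistant cultures lay above the parental culture mean. Without parental culture 2, which leaves 1 parental culture, the difference was -0.65 (adjusted p = 0.306).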

How the results depend on the processing

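Over 911 recomputed values of the 7 genes, 873 kept their direction and their side of the threshold, 7 lost and 12 gained a call, 13 changed sign, and 6, all of Sod3, moved by more than their standard error. In tumors the sign changed without the parental tumors of GC index above 0.5 (Sod1 -0.14, Sod2 -0.29, Cat -0.19), with the GC index as a covariate (Sod1 -0.15, Sod2 -0.47, Cat -0.24) and with the fibroblast and pericyte markers as a covariate (Sod1 -0.33, Sod2 -1.10, Sod3 -0.05, Cat -0.47); these Sod1, Sod2 and Cat values passed in none of the fits, and the cause was not tested. That last covariate left 1 enzyme called in place of 3, and 1438 genes in place of 3647. The level of these markers goes largely with the line, so that fit cannot tell the markers from the line. With Ptprc as a covariate Sod2 was called in tumors (1.25, adjusted p = 0.017, limma), in a fit that called 5372 genes in place of 3647. That fit kept the parental tumors of high GC index, without which the Sod2 difference was -0.29. In culture, 1 fit over all libraries left 0 of the 5 called, and leaving out each library gave 0 to 1. In parental tumors against culture, 1 fit over all libraries gave 4 called in place of 2, leaving out the tumors of high GC index gave 5, including Sod2 (-0.98, adjusted p = 0.00595, limma), and leaving out each library gave 1 to 3. For the difference of line differences, leaving out the tumors of high GC index gave 2 called in place of 1 and Sod1 at -0.20, and leaving out each library gave 0 to 2. Leaving out each library moved the Sod1 line difference between -0.0039 and 0.11 in culture, and its difference of line differences between -0.04 and 0.14. A pseudocount of 0.1 gave Sod3 6.20 for the difference of line differences and 4.6 for resistant tumors against culture, and quantile normalization gave 3.74 and 2.09. Over all genes, the culture comparison called 1590, and 813, 578 and 1031 without parental culture 1, parental culture 2 and resistant culture 4. Parental tumors against culture called 3169, and 1406 and 1627 without parental culture 1 and 2, and the difference of line differences called 604, and 242 without parental culture 2. Quantile normalization moved the median of all genes from 0.21 to -0.04 and from 0.18 to -0.10 in the parental and resistant tumor against culture comparisons. No paired analysis was possible because the labels carry no replicate numbers. Depth is unknown, and 2 parental cultures limit every comparison with them.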
